A study of Mus musculus with 20 samples.

Results

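Liver RNA of gonad-intact male mice was compared between 2 weeks of intermittent hypoxia and 2 weeks of normoxia. The mice compared here had all had sham surgery, the control operation for orchiectomy (removal of the testes), so that the hypoxia response was measured with the testes in place. The comparison was formed by every sham-operated library that has counts. There were 5 of Sham_IH (intermittent hypoxia, mice 1 to 5) and 4 of Sham_Nx (normoxia, mice 2 to 5), 9 of the 19 libraries with counts. Sham_Nx mouse 1 is among the 20 labelled samples but has no column of counts, so it was not analysed here. The other 10 libraries, 5 of orchiectomized mice in normoxia (ORX_Nx) and 5 in intermittent hypoxia (ORX_IH), entered the fit and served for a test of the difference between the hypoxia responses. Within a group each library carries its own mouse number, and the same numbers recur in the other groups. Strain, age, feeding state, time of sampling and oxygen regime were not given in the sources used here.

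Intermittent hypoxia, in which oxygen falls and recovers repeatedly, is used in rodents as a model of the oxygen swings of sleep apnoea. The liver makes and exports cholesterol and triglyceride, and it adjusts these pathways through the transcription factors SREBP2 (sterol synthesis and uptake), SREBP1c (fatty acid synthesis) and the PPAR family (fatty acid oxidation and lipid storage). Low oxygen acts on transcription through the hypoxia-inducible factors (HIFs), which are degraded while oxygen is plentiful. In mice the adult male liver also differs from the female liver in many cytochromes P450, flavin-containing monooxygenases and major urinary proteins (Mup), a difference set largely by growth hormone and androgen.

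The sham libraries held 29.3 to 65.8 M estimated counts, and values below are CPM, the count of a gene scaled to a common library total, after adjustment by the trimmed mean of M-values (TMM). Albumin, the defining hepatocyte product, was at 60135 ± 5756 CPM (mean ± SD, n = 4, as for all Sham_Nx values with an SD below) in Sham_Nx and 74614 ± 3705 CPM in Sham_IH (n = 5, as in ORX_Nx and ORX_IH), an adjusted p of 0.515. In 4 of the 9 libraries, genes of other tissues stood apart. The summed level of 22 skeletal muscle genes was 243 CPM in Sham_Nx 2 and 60.8 CPM in Sham_Nx 3, against 9.71 to 13.2 CPM in the other 7 libraries. The summed level of 18 pancreatic acinar genes was 652 CPM in Sham_Nx 5 and 1582 CPM in Sham_IH 5, against 7.80 to 30.2 CPM elsewhere. Those 2 libraries are also the ones with library numbers 19 and 20, apart from numbers 10 to 16 of the rest. Mup transcripts took 4.69 to 7.02% of the counts in Sham_Nx and 2.70 to 4.91% in Sham_IH. Which calls held without these libraries is given with the counts of called genes.

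**Figure D1:**
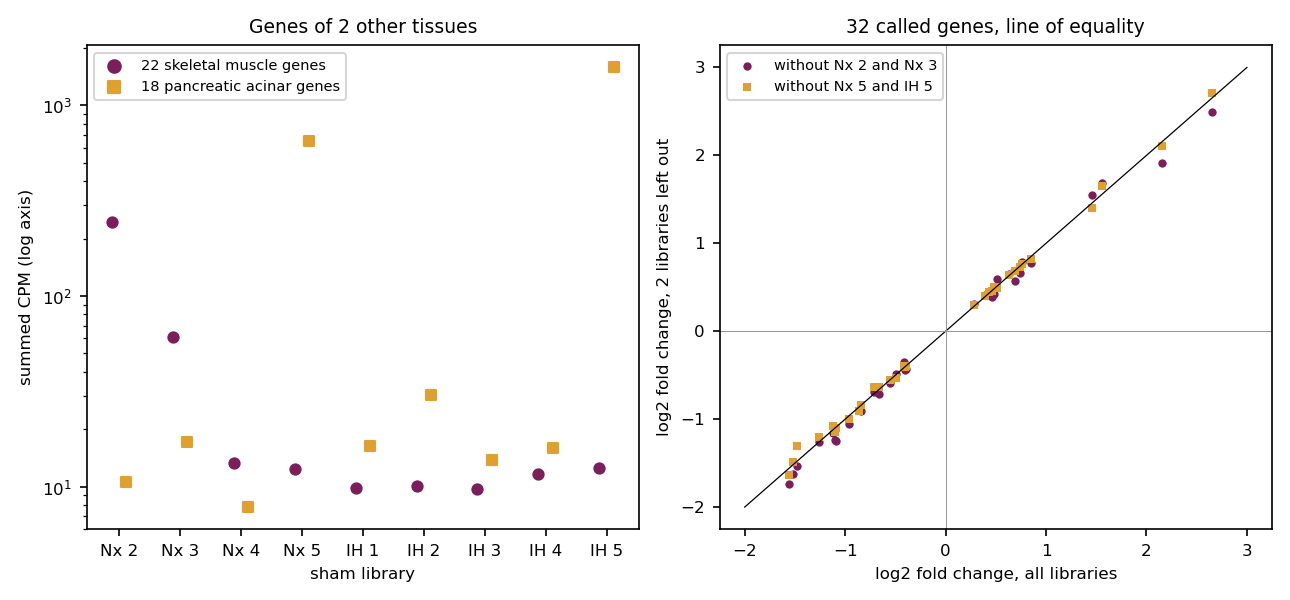
Left, summed CPM (log axis) of 22 skeletal muscle genes (circles) and 18 pancreatic acinar genes (squares) in each sham library. Right, log2 fold change of the 32 named genes that passed the test, with all 19 libraries (x axis) against a fit of sham libraries alone without 2 of them (y axis); all 32 kept their direction in both leave-outs, at 0.822 to 1.17 times the size without Sham_Nx 2 and 3 and 0.887 to 1.08 times without Sham_Nx 5 and Sham_IH 5.

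Few genes passed the test. Those with a rise of at least 2-fold included the cholesterol gene Sqle and the bile acid carrier Slco1a4, and those that fell included the lipid droplet gene Plin2 and the fatty acid thioesterase Acot2. Of the 36106 genes counted, 11341 were at 0 in every library, and 16164 had enough counts to be tested. In the edgeR quasi-likelihood fit of all 4 groups, 16 genes rose (0.099% of those tested) and 33 fell (0.204%) at 0.05 after Benjamini-Hochberg (BH) adjustment (49 in either direction, 0.303%), and 11 of the 49 differed at least 2-fold. All 49 had every Sham_IH library on the same side of every Sham_Nx library, which held for 4.31% of all tested genes above and 4.21% below. The same libraries gave the calls, so this separation is no independent evidence for them. The median log2 fold change over all genes was 0.00477, and 8254 of 16164 genes were positive. At an unadjusted p under 0.05 there were 2125 genes (13.1%), with 6.62% of tested genes higher and 6.53% lower.

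Fitted on the 9 sham libraries alone, 232 genes rose (1.53% of 15133 tested) and 251 fell (1.66%), together 3.19%, and 76 of these differed at least 2-fold. All 49 genes of the fit over 4 groups were among these 483, of which they made up 10.1%. The common coefficient of variation between libraries was 0.188 in the sham groups, 0.271 in the orchiectomized groups and 0.236 over all. Below, "rose" and "fell" without further words refer to the fit of all 4 groups, the sham-only fit is named wherever it is used, and adjusted p is edgeR's BH-adjusted p over all genes tested. Fold changes are given on the log2 scale with their standard error.

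The number of genes called depended on single libraries. In the fit over 4 groups it was 1 without Sham_Nx 2 and 1 without Sham_Nx 5, 20 without Sham_Nx 3, 20 without Sham_Nx 4, 13 without Sham_IH 1, 26 without Sham_IH 2, 9 without Sham_IH 3, 33 without Sham_IH 4 and 17 without Sham_IH 5. It was 2 without the muscle-high libraries (Sham_Nx 2 and 3, ORX_IH 1 and 2) and 9 without mouse 5 of each group. In the sham-only fit it was 36 without Sham_Nx 2 and 3 and 100 without Sham_Nx 5 and Sham_IH 5. Of the 32 named genes called, 2 were still called over 4 groups without the muscle-high libraries, Slco1a4 and Nceh1. In the sham-only fit without Sham_Nx 2 and 3, 13 were: Slco1a4, Nceh1, Clstn3, Sec23a, Rab30, Acot2, Pparg, Tor3a, Phospho1, Tfpi2, Hexa, Plin2 and Olig1. Without Sham_Nx 5 and Sham_IH 5, 22 were, and the 10 that lost their call were Slco1a4, St3gal4, Zfp950, Ptpn3, Cyp2c70, Tor3a, Plin2, Unc119, Mxd4 and Mcm4. Nceh1 was the named gene called in all 9 fits that left out a sham library, while Elovl1 was called in none of them.

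**Figure D2:**
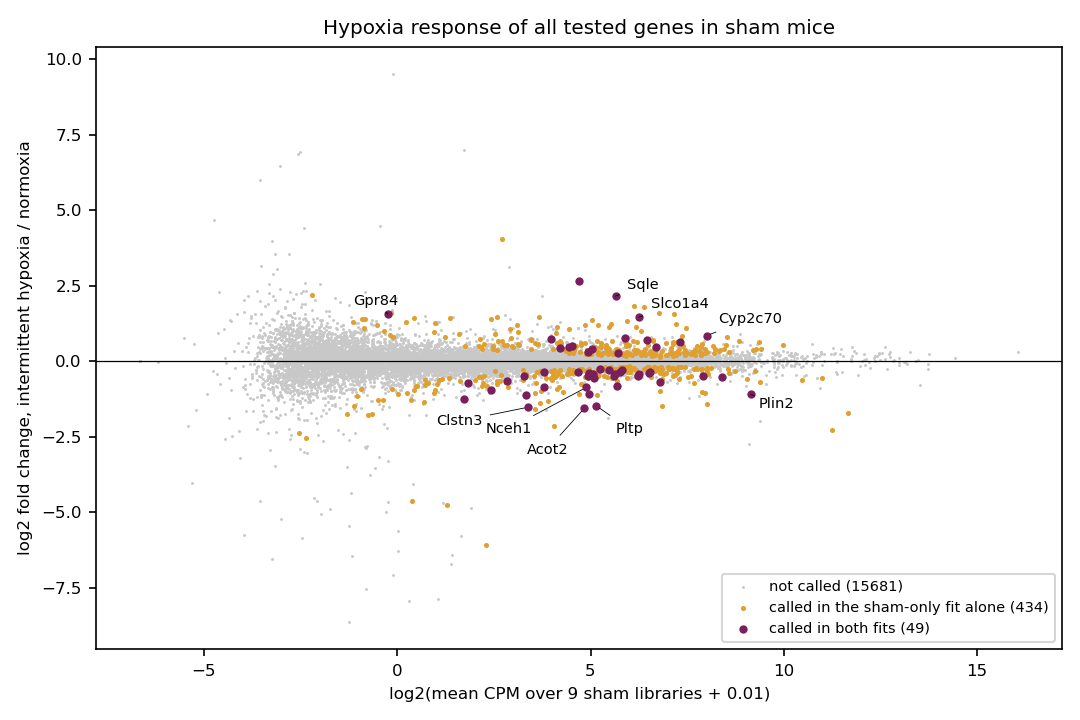
Log2 fold change of intermittent hypoxia over normoxia in sham mice (y axis) against the mean level over the 9 sham libraries (x axis, log2 of CPM plus a constant), 1 point per tested gene. The 49 genes called in both fits (large points) include Sqle at 2.16 and Acot2 at -1.55; the most extreme grey points are weakly expressed genes, muscle genes at the bottom among them.

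Cholesterol genes were higher after intermittent hypoxia. Of 25 genes of cholesterol synthesis and its regulation 2 rose (0.099% of all genes), Sqle among them, and none fell. In the sham-only fit 17 rose (1.53% of all genes) and none fell. The median log2 fold change of the 25 was 1.03, against 0.00477 over all genes, and 24 were positive. In 19 of the 25 every Sham_IH library lay above every Sham_Nx library (4.31% of all genes). This list was written with earlier results of these data known.

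Sqle (ENSMUSG00000022351) encodes squalene epoxidase, which carries out the first oxygen-requiring step of sterol synthesis. It stood at 17.8, 10.2, 29.1 and 11.4 CPM in Sham_Nx 2 to 5 and 72.8, 82.6, 73.6, 100.3 and 52.7 CPM in Sham_IH 1 to 5. All 5 hypoxia libraries were above the highest normoxia library, a log2 fold change of 2.16 ± 0.37 (adjusted p = 0.0199). Without Sham_Nx 2, Sham_Nx 3, Sham_Nx 5 or Sham_IH 3, each left out alone, the adjusted p rose to at most 0.0817, with fold changes of 1.96 to 2.54 over all 9 leave-outs.

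Sterol-sensing genes also rose in the sham-only fit. Srebf2, which encodes SREBP2 itself, went from 43.9 to 71.4 CPM (group means), a log2 fold change of 0.70 ± 0.16 with adjusted p = 0.0646 over 4 groups and 0.00843 in the sham-only fit. Insig1, which holds the SREBP escort in the endoplasmic reticulum, stood at 68.9, 68.4, 86.2 and 54.6 CPM in normoxia and 198, 185, 169, 332 and 134.7 CPM in hypoxia (1.55 ± 0.44, adjusted p = 0.129, sham-only 0.0108). In neither gene did the groups overlap.

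Along the pathway the rise in the sham-only fit ran from the entry step to late sterol processing. Hmgcs1, the synthase that forms HMG-CoA, had a log2 fold change of 1.24 ± 0.40 (sham-only adjusted p = 0.0212). Idi1, the isopentenyl-diphosphate isomerase, reached an adjusted p of 0.0511 over 4 groups, just outside the threshold, at 1.59 ± 0.34. Fdft1, the squalene synthase before Sqle, was at 1.15 (sham-only adjusted p = 0.00736). Lss, the lanosterol synthase after Sqle, was at 1.21 (sham-only 0.0156), and the sterol methyl oxidase Msmo1 at 1.82 (sham-only 0.0109). At the other end of the list Ebp, the sterol isomerase, stood at 133.8 CPM in normoxia and 133.8 CPM in hypoxia (0.00 ± 0.10), and Tm7sf2, a sterol reductase, at -0.11 ± 0.20, both with overlapping groups.

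The sizes of these differences were little altered by the libraries that stood apart, while the calls were. Without Sham_Nx 2 and 3 the median of the 25 genes in the sham-only fit was 1.03 and none was called. Without Sham_Nx 5 and Sham_IH 5 it was 1.11 and 12 rose. Sqle was at 1.91 (adjusted p = 0.0916) without the former pair and at 2.11 (0.0374) without the latter. Each of those fits has 7 libraries.

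**Figure D3:**
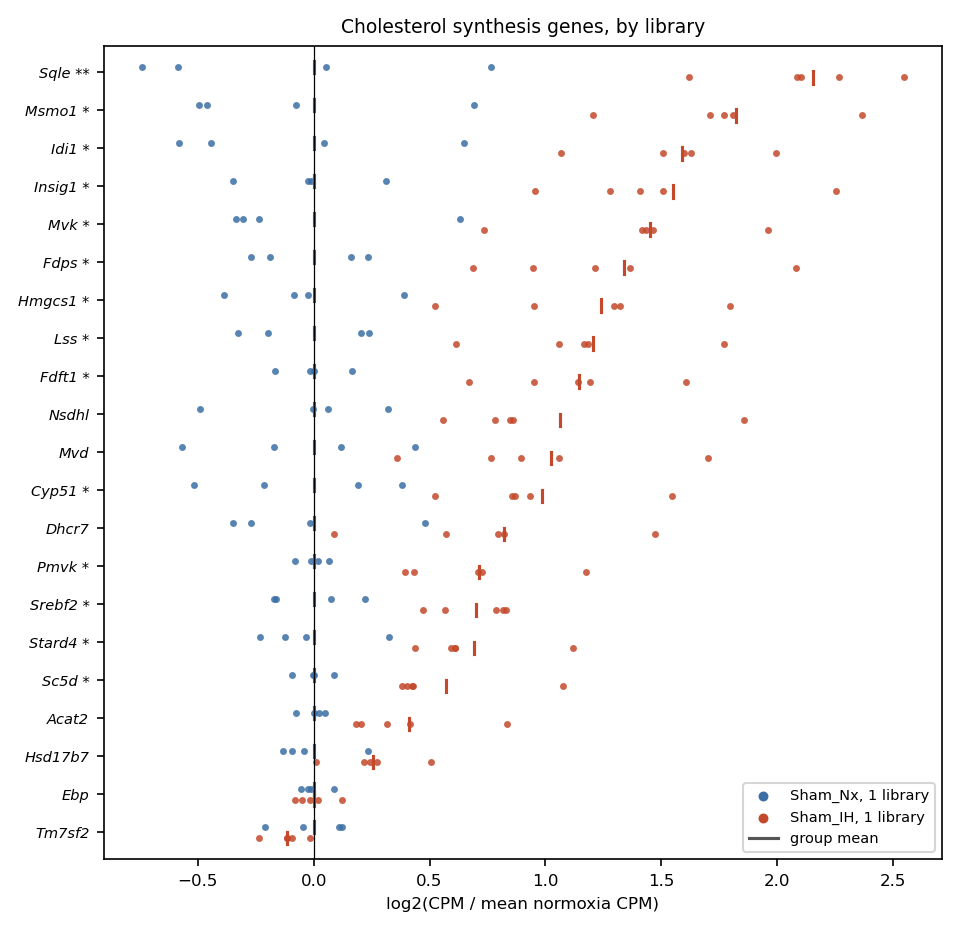
Level of 21 cholesterol genes in each sham library as log2 of CPM over the normoxia mean (x axis), 4 Sham_Nx libraries in blue and 5 Sham_IH in red, with vertical ticks at the group means; paired asterisks mark genes called in the fit of 4 groups and a single asterisk those called in the sham-only fit alone. From Sqle at 2.16 down to Srebf2 at 0.70 most red points lie right of all blue points, and Ebp and Tm7sf2 at the bottom overlap.

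Promoters of 4 of these genes are shown because members of the list moved together, with 2 motifs marked. Hmgcs1 was chosen by hand, and the others are the listed genes of smallest p with a promoter entry. SREBP binds sterol regulatory elements, searched for here as TCACNCCAC, and NF-Y, a factor known to act beside it, binds CCAAT; both strands were searched, in RefSeq promoters of GRCm38.p6 running from 250 bases before to 50 after the start. The 250 bases before the start are printed 5′ to 3′ on the gene's strand, with matches to either motif in capitals (ATTGG is CCAAT on the other strand); no match of one motif overlapped the other. Hmgcs1 is from chr13:119690101-119690350 (plus strand), Idi1 from chr13:8885356-8885605 (plus), Lss from chr10:76531355-76531604 (plus) and Msmo1 from chr8:64733579-64733828 (minus).
Hmgcs1: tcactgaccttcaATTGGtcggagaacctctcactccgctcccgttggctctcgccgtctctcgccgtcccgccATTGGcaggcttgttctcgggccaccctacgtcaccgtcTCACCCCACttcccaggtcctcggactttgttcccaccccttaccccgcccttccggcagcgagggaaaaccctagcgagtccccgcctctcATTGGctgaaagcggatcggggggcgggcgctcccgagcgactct
Idi1: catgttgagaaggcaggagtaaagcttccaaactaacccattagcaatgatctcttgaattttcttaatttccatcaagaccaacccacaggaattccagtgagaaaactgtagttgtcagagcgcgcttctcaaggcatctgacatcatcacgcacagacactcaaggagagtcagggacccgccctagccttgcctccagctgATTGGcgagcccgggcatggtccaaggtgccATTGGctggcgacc
Lss: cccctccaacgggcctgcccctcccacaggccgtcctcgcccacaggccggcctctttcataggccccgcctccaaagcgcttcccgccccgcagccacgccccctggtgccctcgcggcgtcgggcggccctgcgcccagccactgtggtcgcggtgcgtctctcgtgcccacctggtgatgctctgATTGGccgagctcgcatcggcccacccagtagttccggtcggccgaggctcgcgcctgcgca
Msmo1: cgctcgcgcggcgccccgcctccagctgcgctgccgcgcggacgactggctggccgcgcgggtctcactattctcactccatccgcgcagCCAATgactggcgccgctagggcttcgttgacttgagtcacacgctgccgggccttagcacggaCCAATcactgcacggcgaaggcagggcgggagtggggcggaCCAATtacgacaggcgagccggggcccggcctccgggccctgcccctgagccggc
The sterol element was found in 1 of the 17 listed genes with an entry, Hmgcs1, where TCACCCCAC begins 137 bases before the start, and in 1.44% of all 27025 genes with a promoter. CCAAT was found in 16 of the 17 and in 41.1% of all. Fdps, Fdft1, Sqle and Stard4 were among those with no entry.

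Bile acid and sterol transport genes held 2 of the rises. Of 23 genes of bile acid synthesis and transport, Slco1a4 and Cyp2c70 rose (0.099% of all genes) and none fell. In the sham-only fit 4 rose and 2 fell (1.53% and 1.66% of all genes). That fit called 1 rise without Sham_Nx 2 and 3, 2 rises without Sham_Nx 5 and Sham_IH 5, and no fall in either. The median log2 fold change of the 23 was 0.02 (-0.000702 with no scaling factors, 0.0557 in the sham-only fit without Sham_Nx 5 and Sham_IH 5). Slco1a4 (ENSMUSG00000030237), an uptake carrier for bile acids and other organic anions, stood at 21.2, 60.8, 39.1 and 33.6 CPM in Sham_Nx 2 to 5 and 95.6, 125, 112, 92.9 and 107 CPM in Sham_IH 1 to 5. The groups did not overlap, and the log2 fold change was 1.46 ± 0.22 (adjusted p = 0.0147); the call was lost without Sham_Nx 2 or Sham_Nx 5 (at most 0.0602) and, in the sham-only fit, kept without Sham_Nx 2 and 3 (1.55, 0.00498) and lost without Sham_Nx 5 and Sham_IH 5 (1.40, 0.0744).

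Cyp2c70, which makes the muricholic acids of rodents, was at 195, 142, 169 and 202 CPM in normoxia and 379, 239, 279.8, 292 and 406 CPM in hypoxia (0.85 ± 0.17, adjusted p = 0.0405). It is 1 of many similar Cyp2c genes among which reads may be split. In the sham-only fit the bile acid importer Slc10a1 (0.40) and the reductase Akr1d1 (0.66) also rose, and the canalicular phospholipid exporter Abcb4 (-0.32) and the basolateral exporter Abcc3 (-0.25) fell. Cyp7a1, the rate-limiting enzyme of bile acid synthesis, stood at 134.1, 246, 259.6 and 256 CPM and 182, 219, 299, 201 and 224 CPM, with overlapping groups and a log2 fold change of 0.00 ± 0.31.

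Other called genes act on lipids; they are grouped here for reading and are no list that was tested. Nceh1 (ENSMUSG00000027698), a hydrolase of neutral cholesterol esters, had the smallest adjusted p of all genes. It stood at 46.0, 31.4, 45.1 and 35.5 CPM in Sham_Nx 2 to 5 and 20.1, 20.7, 22.3, 24.2 and 21.1 CPM in Sham_IH 1 to 5. All hypoxia libraries lay within a narrow band below the normoxia range, a log2 fold change of -0.87 ± 0.11 (adjusted p = 0.00486, at most 0.0394 with any sham library left out). Pltp, the plasma phospholipid transfer protein, fell from 55.1 ± 23.7 CPM to 19.8 ± 3.67 CPM (-1.48 ± 0.29, adjusted p = 0.0371). Apom, the sphingolipid carrier of high-density lipoprotein, rose from 121 ± 3.78 CPM to 188 ± 21.8 CPM (0.63 ± 0.11, adjusted p = 0.0254), with Sham_IH 4 the highest. Phospho1, a phosphocholine phosphatase, fell from 44.0 ± 8.59 CPM to 20.6 ± 3.87 CPM (-1.09 ± 0.20, adjusted p = 0.0317). Elovl1, an elongase of very long fatty acids, rose by 0.39 (adjusted p = 0.0386).

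Lipid storage genes were mostly negative. Of 19 tested genes of lipid droplets and lipolysis Plin2 and Pparg fell (0.204% of all genes) and none rose. The sham-only fit called the same 2 falls (1.66% of all genes). Of the 19, 15 were negative and the median was -0.29. Plin2 (ENSMUSG00000028494), the main coat protein of liver lipid droplets, stood at 902, 548, 1106 and 663 CPM in Sham_Nx 2 to 5 and 314, 447, 418, 359.5 and 341 CPM in Sham_IH 1 to 5. The highest hypoxia library was below the lowest normoxia library (-1.10 ± 0.21, adjusted p = 0.0327). Pparg (ENSMUSG00000000440), the PPAR that drives lipid storage genes, stood at 8.07, 9.14, 8.76 and 9.78 CPM in Sham_Nx 2 to 5 and 5.57, 5.7, 4.92, 6.12 and 5.93 CPM in Sham_IH 1 to 5, again without overlap (-0.66 ± 0.11, adjusted p = 0.0199).

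The other lipid droplet genes did not pass in either fit. Cidec, which fuses droplets, had the most negative value of the list at -1.60 ± 0.58 (adjusted p = 0.224) and overlapping groups, with Sham_Nx 4 at 51.7 CPM against 12.3 to 14.3 CPM in the other normoxia libraries. Cd36, a fatty acid importer, was at -0.98 ± 0.27 (adjusted p = 0.121). Without Sham_Nx 2 and 3 both Plin2 (-1.24, adjusted p = 0.047) and Pparg (-0.72, 0.047) were still called in the sham-only fit; without Sham_Nx 5 and Sham_IH 5 Pparg was (-0.63, 0.0422) and Plin2 was at -1.15 (0.0579). In the fit of 4 groups the Plin2 call held in 2 of 9 leave-outs, those of Sham_Nx 3 and Sham_IH 2, and the Pparg call in 5 of 9.

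Fatty acid oxidation genes were mostly negative as well. Of 30 genes of fatty acid oxidation and ketogenesis, Acot2 fell (0.204% of all genes) and none rose. In the sham-only fit 5 fell (1.66% of all genes) and none rose. That fit called 1 fall without Sham_Nx 2 and 3, and 1 without Sham_Nx 5 and Sham_IH 5. Over 4 groups 24 of 30 were negative, and the median was -0.19. Acot2 (ENSMUSG00000021226), a mitochondrial acyl-CoA thioesterase, stood at 42.2, 36.7, 67.9 and 34.2 CPM in Sham_Nx 2 to 5 and 13.3, 19.2, 15.5, 15.0 and 14.0 CPM in Sham_IH 1 to 5, without overlap (-1.55 ± 0.27, adjusted p = 0.0199). The call was kept without Sham_Nx 3, Sham_IH 2 or Sham_IH 4 and lost without any of the other 6, at an adjusted p of at most 0.0685. The others that fell in the sham-only fit were the cytosolic thioesterase Acot1 (-1.03), whose sequence is close to that of Acot2, the peroxisomal thiolase Acaa1b (-0.63), the carnitine carrier Slc25a20 (-0.26) and the carnitine transferase Cpt2 (-0.27). Cpt1a, which gates entry of fatty acids into mitochondria, had groups that did not overlap (-0.40 ± 0.10, adjusted p = 0.0765, sham-only 0.0535). Outside the list, the carnitine transporter Slc22a5 (-0.83 ± 0.17, adjusted p = 0.0388) and the fatty acid transport protein Slc27a4 (-0.30 ± 0.06, adjusted p = 0.0386) fell.

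**Figure D4:**
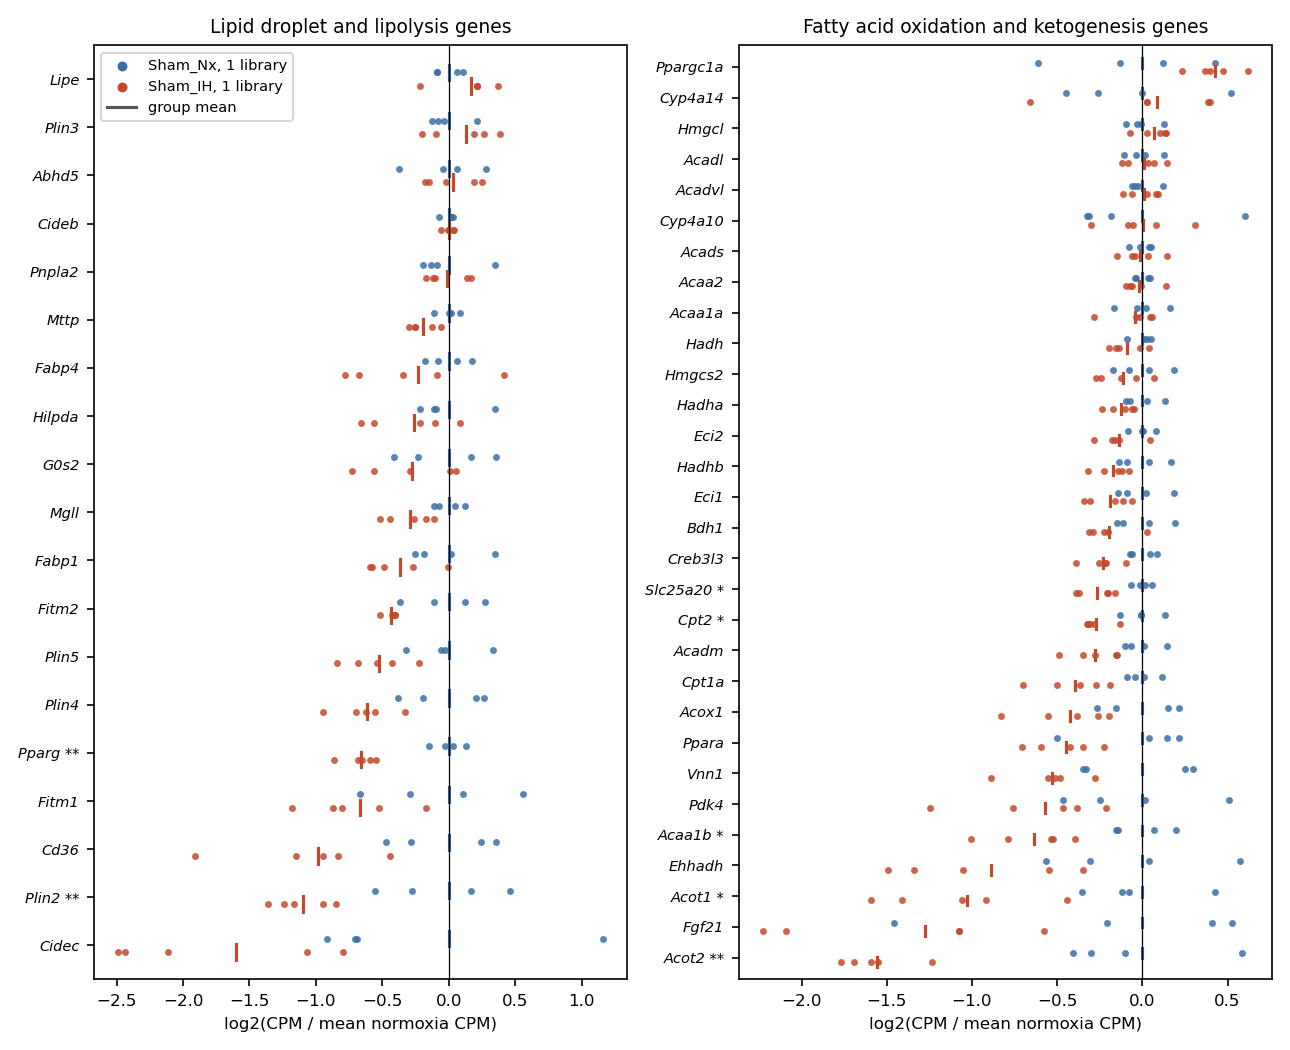
Level of 19 lipid droplet genes (left) and 30 fatty acid oxidation genes (right) in each sham library as log2 of CPM over the normoxia mean, 4 Sham_Nx libraries in blue and 5 Sham_IH in red, with ticks at the group means; paired asterisks mark genes called in the fit of 4 groups and a single asterisk those called in the sham-only fit alone. Plin2 at -1.10, Pparg at -0.66 and Acot2 at -1.55 are the marked genes whose red points all lie left of the blue ones in the fit of 4 groups.

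Fatty acid synthesis genes were split. None of 23 passed in the fit of 4 groups, where the median was 0.18. In the sham-only fit 6 rose and 3 fell (1.53% and 1.66% of all genes). That fit called none of the 23 without Sham_Nx 2 and 3. Without Sham_Nx 5 and Sham_IH 5 it called 3 that rose and 2 that fell. Srebf1, which encodes the SREBP1 forms, stood at 33.0, 33.2, 38.0 and 36.2 CPM in Sham_Nx 2 to 5 and 102, 92.8, 91.5, 211 and 112 CPM in Sham_IH 1 to 5 (1.79 ± 0.43, adjusted p = 0.0736, sham-only 0.0064). Fasn, the fatty acid synthase, was at 1.09 (sham-only adjusted p = 0.0115) and the elongase Elovl6 at 0.66 (sham-only 0.0115), and Acly, Gpam and Acaca also rose in that fit. Scd1, the stearoyl-CoA desaturase, went the other way, at 4523, 3210, 1337 and 8395 CPM in Sham_Nx 2 to 5 and 706, 800.1, 881, 1009 and 1119 CPM in Sham_IH 1 to 5 (-2.27 ± 0.51, adjusted p = 0.0638, sham-only 0.0167). All 5 hypoxia libraries were below the lowest normoxia library, and the normoxia libraries themselves spread widely. Elovl5 (-0.59 ± 0.13, sham-only adjusted p = 0.022) and Me1, the malic enzyme (-0.60, sham-only 0.0131), were the other falls.

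HIF genes showed no call in the fit of 4 groups, which called 0.303% of all tested genes (3.19% in the sham-only fit). None of 10 tested HIF sensors and regulators passed in either fit, and their median log2 fold change was 0.04. Hif1a stood at 41.7, 39.4, 42.8 and 39.3 CPM in Sham_Nx 2 to 5 and 44.6, 42.9, 46.0, 49.6 and 45.4 CPM in Sham_IH 1 to 5 (0.16 ± 0.07, adjusted p = 0.347); Epas1, which encodes HIF-2 alpha, was at 0.29 ± 0.15 (adjusted p = 0.434), and both had every hypoxia library above every normoxia library. The prolyl hydroxylase Egln3, itself a HIF target, was at 0.28 ± 0.10 (adjusted p = 0.234) with overlapping groups.

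Of 28 tested HIF targets none passed over 4 groups. In the sham-only fit 1 rose and 1 fell (1.53% and 1.66% of all genes). That fit called none of them without Sham_Nx 2 and 3, and none without Sham_Nx 5 and Sham_IH 5. The median of the 28 was -0.10 (-0.058 in the sham-only fit without Sham_Nx 2 and 3). Vegfa, the endothelial growth factor, was at 139.1 ± 5.1 CPM in Sham_Nx and 167 ± 12.1 CPM in Sham_IH, without overlap (0.27 ± 0.11, adjusted p = 0.275, sham-only 0.0335). Angptl4, a lipoprotein lipase inhibitor also under PPAR control, was lower, at 60.7, 49.2, 33.1 and 61.0 CPM in Sham_Nx 2 to 5 and 16.1, 16.5, 17.4, 33.9 and 33.2 CPM in Sham_IH 1 to 5 (-1.12 ± 0.33, adjusted p = 0.144, sham-only 0.0494), and Sham_IH 4 and 5 reached the lowest normoxia library. Epo, the erythropoietin gene, had 3 counts in all 9 sham libraries together and was not tested.

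Flavin-containing monooxygenases oxidize nitrogen and sulfur compounds. Fmo2 was at 0.69 ± 0.31 (adjusted p = 0.34), Fmo1 at 0.11 ± 0.15, Fmo4 at 0.17 ± 0.15 and Fmo5 at 0.05 ± 0.15, all with overlapping groups. Fmo1 and Fmo5 changed sign under some alternatives. Fmo6 had at most 3 counts in a sham library and Fmo9 none. Values for the family as a whole are not reported here, and these members do not stand for it.

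No gene of the male-biased or female-biased list used here passed over 4 groups, where 0.303% of all tested genes did. Of 30 male-biased liver genes none was called there. Cyp4a12a and Cyp4a12b, the male fatty acid hydroxylases, fell in the sham-only fit (1.66% of all genes). That fit called none of the 30 without Sham_Nx 2 and 3, and 1 fall without Sham_Nx 5 and Sham_IH 5. The sequences of Cyp4a12a and Cyp4a12b are nearly alike and reads may be split between them. Cyp4a12a stood at 492, 355, 378 and 338 CPM in Sham_Nx 2 to 5 and 219, 98.7, 137, 165 and 121.5 CPM in Sham_IH 1 to 5, without overlap (-1.40 ± 0.46, adjusted p = 0.181, sham-only 0.00843). Mup17, 1 of a family of near-identical genes, was at -2.75 ± 0.82 (adjusted p = 0.146, sham-only 0.0501), with 1446, 382, 1098 and 1200 CPM in normoxia and 63.7, 33.1, 61.1, 329 and 280.2 CPM in hypoxia. The median of the male-biased list was -0.19. Of 33 tested female-biased genes none was called over 4 groups, and the median was 0.06 (0.00454 in the sham-only fit without Sham_Nx 5 and Sham_IH 5). The sham-only fit tested 25 of them, and 2 rose (1.53% of all genes), Cux2 among them, while Acot4 and Acot3 fell (1.66%). That fit called 1 fall and no rise without Sham_Nx 2 and 3. The same counts held without Sham_Nx 5 and Sham_IH 5. Cux2, a female-specific transcription factor of mouse liver, stood at 2.72, 2.66, 3.41 and 2.25 CPM in Sham_Nx 2 to 5 and 5.89, 8.88, 11.4, 4.77 and 5.93 CPM in Sham_IH 1 to 5 (1.41 ± 0.34, adjusted p = 0.0765, sham-only 0.0167).

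Cytochromes P450 of the Cyp1 to Cyp3 families were higher where they passed in either fit. Of 35 tested genes Cyp2c70, the bile acid enzyme named above, rose (0.099% of all genes) and none fell. In the sham-only fit 6 of 32 rose (1.53% of all genes) and none fell. Of the 35, 11 had every hypoxia library above every normoxia library (4.31% of all genes), and the median was 0.20. In the sham-only fit without Sham_Nx 2 and 3 the median was 0.132 and none was called. Cyp3a25 stood at 433, 492, 446 and 627 CPM in normoxia and 688, 822, 797, 816 and 762 CPM in hypoxia (0.64 ± 0.16, adjusted p = 0.0765, sham-only 0.0156). Cyp2b9, a female-type P450, was at 0.832, 0.496, 2.76 and 1.61 CPM and 1.87, 18.6, 0.413, 2.98 and 37.5 CPM, where Sham_IH 2 and 5 alone stood far above the rest (3.10 ± 0.85, adjusted p = 0.117). These families also hold similar genes that may share reads.

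Complement, coagulation and ribosomal protein genes were mostly positive. Of 29 complement and coagulation genes none passed over 4 groups and Masp1, Serpinf2 and F7 rose in the sham-only fit (1.53% of all genes). Of the 29, 14 had every hypoxia library above every normoxia library (4.31% of all genes), and the median was 0.18. Serpinf2, the plasmin inhibitor, stood at 483, 466, 543 and 516 CPM in Sham_Nx 2 to 5 and 649.6, 641, 658, 728 and 575 CPM in Sham_IH 1 to 5 (0.37 ± 0.09, adjusted p = 0.0781, sham-only 0.0299). All 30 ribosomal protein genes were positive, with a median of 0.14 (0.121 with no scaling factors). Of these, 16 had every hypoxia library above every normoxia library (4.31% of all genes) and 5 rose in the sham-only fit (1.53% of all genes). Rpl3 was the one of smallest p, at 0.34 ± 0.08 (adjusted p = 0.0697, sham-only 0.0303). The sham-only fit called no gene of either list without Sham_Nx 2 and 3, and none without Sham_Nx 5 and Sham_IH 5. Of 30 urea cycle and amino acid genes Gls2 (0.37) and Agxt (0.40) rose in the sham-only fit, and neither of these leave-outs called any of the 30. The summed level of periportal hepatocyte markers, most of it albumin, was 64310 to 77650 CPM in Sham_Nx and 84210 to 90790 CPM in Sham_IH. Of 15 tested periportal markers none was called over 4 groups, 3 rose in the sham-only fit and 4 were negative. The sham-only fit called none of the 15 without Sham_Nx 2 and 3, and 2 rises without Sham_Nx 5 and Sham_IH 5. The pericentral marker sum was 10280 to 11020 CPM in Sham_Nx and 10730 to 11910 CPM in Sham_IH. The part of the periportal difference in the values of secreted and amino acid genes was not tested.

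Endoplasmic reticulum folding genes were mostly negative. None of 24 genes of the unfolded protein response passed over 4 groups (0.303% of all genes did), 20 were negative, and the median was -0.26. The one gene called in the sham-only fit, Atf4, a stress-induced transcription factor, rose, at 92.0, 74.5, 95.8 and 75.7 CPM in Sham_Nx 2 to 5 and 113, 102, 125, 110.5 and 104 CPM in Sham_IH 1 to 5 (0.39 ± 0.09, adjusted p = 0.0654, sham-only 0.0417). Hspa5, the main chaperone of this compartment, was at 2246 CPM in normoxia and 1517 CPM in hypoxia (-0.57 ± 0.27, adjusted p = 0.382) with overlapping groups. Of the genes called over 4 groups, Sec23a, a coat protein of vesicles that leave this compartment, fell from 105.7 ± 2.52 CPM to 79.7 ± 4.34 CPM (-0.41 ± 0.06, adjusted p = 0.0147). Rab30, a Golgi GTPase, fell from 18.3 ± 1.16 CPM to 10.2 ± 0.885 CPM (-0.85 ± 0.14, adjusted p = 0.0156), and Tor3a, a torsin ATPase, fell as well (-1.12, adjusted p = 0.0209). Tgoln1, a trans-Golgi network protein, was another (-0.48, adjusted p = 0.0327).

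Interferon-stimulated genes, which mark the antiviral response, were mostly negative. Of 31, 27 were negative and the median was -0.49, and none was called over 4 groups. Rsad2 and Ifit1 fell in the sham-only fit (1.66% of all genes). That fit called 2 falls without Sham_Nx 2 and 3 and none without Sham_Nx 5 and Sham_IH 5. Rsad2, the antiviral enzyme viperin, stood at 34.2, 11.4, 21.3 and 22.7 CPM in Sham_Nx 2 to 5 and 11.6, 7.28, 8.36, 7.77 and 9.81 CPM in Sham_IH 1 to 5 (-1.33 ± 0.32, adjusted p = 0.0733, sham-only 0.0229). Sham_Nx 3 lay below Sham_IH 1, so the groups overlapped. Kupffer cell and macrophage markers were lower too: 16 of 16 were negative, with a median of -0.34, and their sum was 387 to 549 CPM in Sham_Nx and 358 to 435 CPM in Sham_IH, Lyz2 being the one that fell in the sham-only fit. Without Sham_Nx 2 and 3 the median in that fit was -0.11 and none was called. In bulk RNA, fewer cells of a type and less RNA per cell cannot be told apart, and the part of these cells in the interferon values was not tested.

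Cell cycle genes were mostly negative. Of 25, Mcm4 fell over 4 groups (0.204% of all genes). Mcm4, Ccnb1, Ccna2 and Top2a fell in the sham-only fit (24 tested, 1.66% of all genes). That fit called no gene of the list without Sham_Nx 2 and 3, and none without Sham_Nx 5 and Sham_IH 5. Of the 25, 20 were negative and the median was -0.41. Mcm4, a subunit of the replication helicase, stood at 4.54, 4.65, 4.33 and 4.5 CPM in Sham_Nx 2 to 5 and 3.34, 3.16, 2.67, 2.47 and 2.17 CPM in Sham_IH 1 to 5 without overlap (-0.71 ± 0.14, adjusted p = 0.0327; in the sham-only fit -0.69 and 0.158 without Sham_Nx 2 and 3). Ccna2, a cyclin of DNA replication, was near 1 CPM in normoxia, at 0.953, 0.955, 0.937 and 1.28 CPM, and at 0.503, 0.205, 0.413, 0.461 and 0.533 CPM in hypoxia (-1.29 ± 0.32, sham-only adjusted p = 0.0308). Ccnb1 was at 0.257 to 0.519 CPM in normoxia and 0 to 0.108 CPM in hypoxia, and 3 counts, the detection floor used here, correspond to 0.0456 to 0.102 CPM in these libraries.

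Of all tested genes 0.303% were called over 4 groups and 3.19% in the sham-only fit, so a short list may hold no call. Several lists held no gene called in either fit. They were the 19 circadian clock genes (median 0.000035, -0.0304 with no scaling factors), the 19 cytosolic heat shock genes (-0.144), the 7 metallothionein and zinc genes (0.056), the 21 iron genes (-0.0204), the 22 immediate early genes (-0.190), the 18 glucocorticoid-responsive genes (-0.113), the 23 androgen and growth hormone signalling genes (0.0246) and the 13 mitochondria-encoded and 28 nuclear-encoded respiratory chain genes (-0.00485 and 0.048). Igfbp2, an insulin-like growth factor binding protein, was the signalling gene of smallest p, at 0.90 ± 0.24 (adjusted p = 0.104). In the 29 NRF2 and antioxidant genes, Gpx4, the peroxidase that protects membrane lipid, fell in the sham-only fit (-0.20 ± 0.07, sham-only adjusted p = 0.0494). In the 28 acute phase and inflammation genes Serpina3n (0.54) and Apcs (0.63) rose in that fit. Among markers of other liver cells, the summed level was 358 to 487 CPM in Sham_Nx and 350 to 472 CPM in Sham_IH for sinusoidal endothelium, and 335 to 395 CPM and 350 to 485 CPM for stellate cells.

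The remaining genes called over 4 groups had varied roles. Among those that rose, St3gal4, a sialyltransferase, went from 86.2 ± 5.81 CPM to 119 ± 8.92 CPM (0.46 ± 0.08, adjusted p = 0.0173). Gpr84, a receptor for medium-chain fatty acids, was weakly expressed, at 0.426, 0.441, 0.371 and 0.346 CPM in normoxia and 1.65, 1.23, 1.35, 1.01 and 0.657 CPM in hypoxia (1.56 ± 0.30, adjusted p = 0.0327). Rdh16f2, a retinol dehydrogenase of a family with similar members, was at 0.76 ± 0.15 (adjusted p = 0.0341). Tmem150a (0.69), Rps4l (0.74), Zfp950 (0.51), Dock6 (0.48), Zfp865 (0.43), the phosphatase Ptpn3 (0.28) and Prkab1, a subunit of the energy sensor AMPK (0.32), also rose.

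Among those that fell, Clstn3, a calsyntenin, went from 16.5 ± 3.5 CPM to 5.74 ± 1.04 CPM (-1.52 ± 0.24, adjusted p = 0.0147). Hexa, a lysosomal hexosaminidase, fell from 41.0 ± 2.96 CPM to 28.0 ± 2.18 CPM (-0.55 ± 0.10, adjusted p = 0.0327). Olig1 (-1.26), Unc119 (-0.96), Tmem64 (-0.49), Mxd4, a partner of MAX (-0.41), and the protease inhibitor Tfpi2 (-0.40) fell at adjusted p values of 0.0147 to 0.0341. Outside the rule for named genes, the histone gene H2bc4 (-0.68), Tlcd4 (-0.52), Ormdl2 (-0.35), a regulator of sphingolipid synthesis, and Pex13 (-0.29), a peroxisomal import protein, were other falls, chosen after their values were seen.

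**Figure D5:**
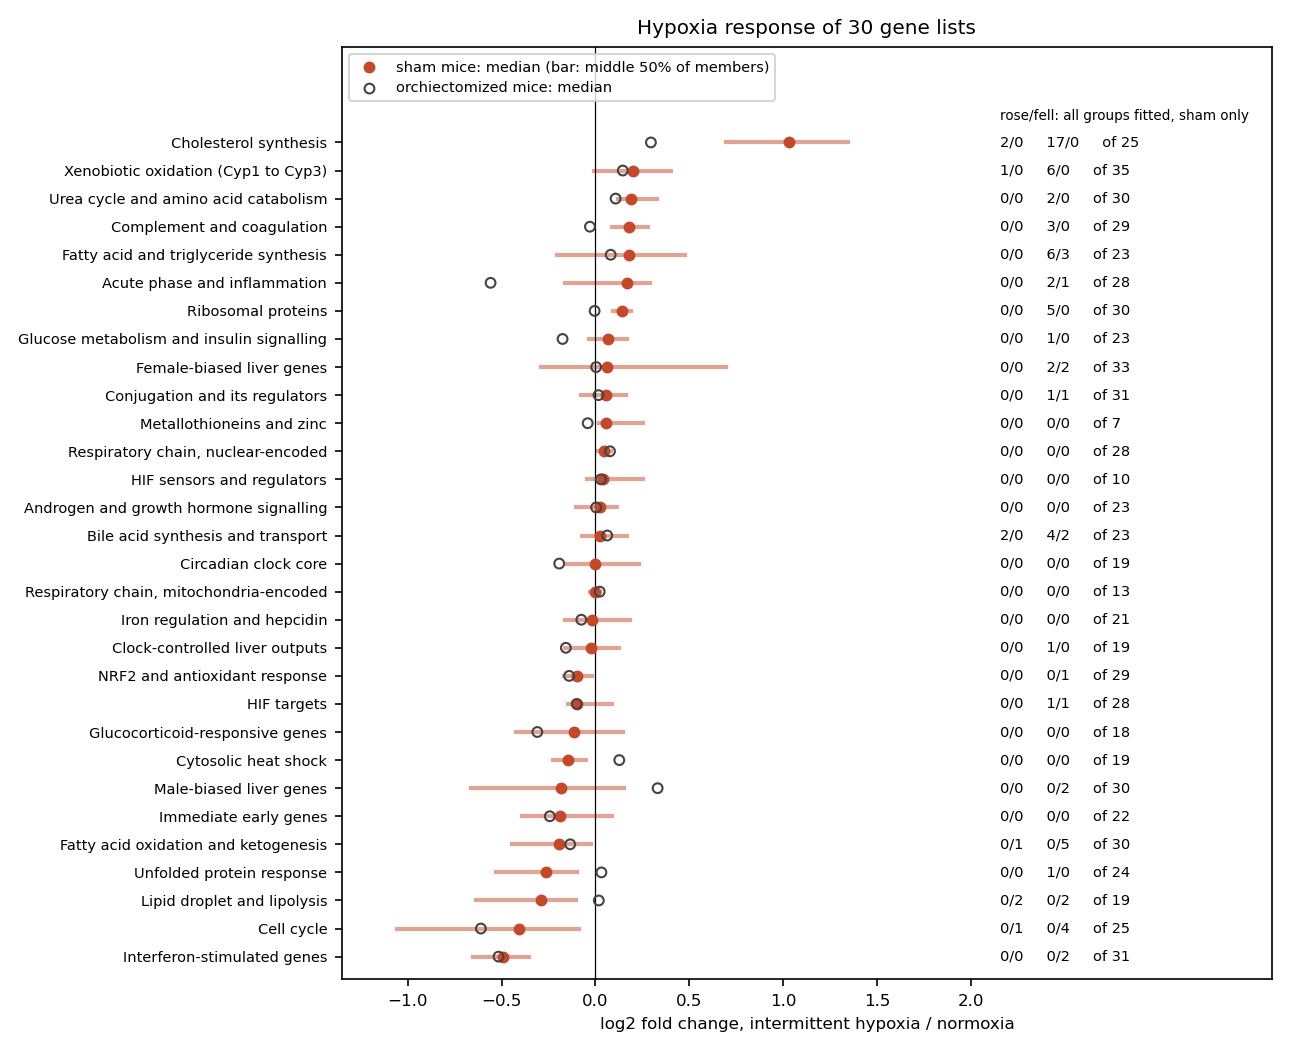
Median log2 fold change of 30 gene lists under intermittent hypoxia in sham mice (filled, with bars over the middle 50% of tested members) and in orchiectomized mice (open); numbers at the right are members that rose/fell in sham mice with all groups fitted, then in the sham-only fit, and the number tested over 4 groups. Cholesterol synthesis stands alone at the top with 1.03 in sham and 0.30 in orchiectomized mice, and interferon-stimulated genes are at the bottom with -0.49 and -0.52.

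The response was set against that of orchiectomized mice, which comes from other libraries, though these entered the same fit. ORX_IH against ORX_Nx gave 3 genes that rose (0.0186%) and 9 that fell (0.0557%). Of the 49 genes called in sham mice 48 had the same sign after orchiectomy, all but Trim37. The share of all tested genes with the same sign is not given here, so this count has no background. The test of the difference between the responses called none of 16164 genes with edgeR (smallest adjusted p 0.224), and 1025 (6.34%) reached an unadjusted p under 0.05; limma-voom called 0 and DESeq2 63. A p that misses the threshold does not show that the responses were alike.

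Side by side, Sqle was at 2.16 ± 0.37 in sham and 0.62 ± 0.33 in orchiectomized mice (difference 1.53 ± 0.48, adjusted p = 0.654). Slco1a4 was at 1.46 ± 0.22 and 0.28 ± 0.20 (difference 1.18 ± 0.30, adjusted p = 0.289), from a higher level after orchiectomy, 190.3 ± 38.6 CPM in ORX_Nx and 232 ± 39.3 CPM in ORX_IH. Nceh1 was at -0.87 ± 0.11 and -0.24 ± 0.11 (difference -0.63 ± 0.15, adjusted p = 0.224). Pparg, which fell in both, was at -0.66 ± 0.11 and -0.60 ± 0.11 (adjusted p after orchiectomy 0.0489), and so were Hexa (-0.55 and -0.54, 0.0489) and, as a rise, Ptpn3 (0.28 and 0.32, 0.0489). The plasma protein Kng2 had opposite values, 0.33 ± 0.08 and -0.22 ± 0.08 (difference 0.55 ± 0.11, adjusted p = 0.224).

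Of the 8 genes of smallest p in the difference test, 6 were skeletal muscle genes (Myh4, Myl1, Acta1, Pvalb, Tnnt3 and Tnnc2), and these were high in Sham_Nx 2 and 3 and in ORX_IH 1 and 2, whose summed muscle levels were 1499 and 879 CPM. All 22 muscle genes were negative in sham mice, with a median of -5.16 that was -0.325 in the sham-only fit without Sham_Nx 2 and 3. Acta1 was at 34.6, 8.17, 0.711 and 0.0692 CPM in Sham_Nx and 0, 0.223, 0.0275, 0.142 and 0.284 CPM in Sham_IH.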

How the data were processed

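Per the labels' protocols, poly(A) RNA of frozen liver was made into strand-specific libraries, and per the submitters' processing notes reads were quantified with kallisto 0.46.1 on GRCm39. Gene-level estimated counts are what the authors deposited; the way transcripts were summed to genes was not given in the sources used here. Of these values 27.5% were not whole, so the expected counts were rounded. A log2 table, also deposited, has a scaling that was not given in the sources used here and served as deposited in 1 alternative.

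Genes were filtered with filterByExpr (minimum count 10), scaled by TMM and tested with edgeR 4.0.16 in R 4.3.3 by the quasi-likelihood F-test over all 19 libraries, with BH adjustment over all genes tested. The tests were tried on simulated data. Limma 3.58.1 (voom and trend), DESeq2 1.42.0, other scalings and filters, a sham-only fit and fits without libraries were alternatives; the fits without Sham_Nx 2 and 3 or without Sham_Nx 5 and Sham_IH 5 on sham libraries alone were chosen after seeing the data. P-values measure the spread between these libraries. Chi-square per degree of freedom between replicates was 20.7 to 109, so each library was counted once. CPM precision follows depth, 29.3 to 65.8 M counts, and covers counting error only.

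Members and 45 gene lists were chosen with earlier results of these data known. Named genes are, by rule, the 15 called in each direction with the smallest p, the largest folds, the called members of each list (otherwise the 2 of smallest p), a fixed set (Fmo genes, HIF genes, Cyp7a1 and others) and the 8 of smallest p in the difference of responses. Other genes of a list that are named were chosen after their values were seen. The 124 genes that share a symbol or lack one were named by identifier. Genes of near-identical families (Mup, Cyp2c, Cyp3a, Cyp4a, Acot, Rdh16) can exchange reads. Some genes that entered the fits and list counts are not reported here by name. Promoter sequences are RefSeq's, from an older build than the counts.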

Additional observations from a re-analysis of the deposited data

Results flagged for a closer look

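Among 92 groups of sham libraries (46 genes), 5 held 1 library further from the others than a 95% limit for single stray values allows; chance would give about 5%. In Sham_IH, mouse 4 was the highest for Apom at 226 CPM (others 174 to 185). Mouse 1 was the lowest for Sec23a at 72.3 CPM (others 80.6 to 83.6). In Sham_Nx, mouse 4 was the highest for Rps4l at 13.0 CPM (others 10.9 to 11.1), mouse 3 the lowest for Phospho1 at 31.1 CPM (others 47.3 to 48.8) and mouse 2 the lowest for Cyp7a1 at 134.1 CPM (others 246 to 260). Without Sham_IH 4 none of the 32 named genes that were called reversed.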

How the results depend on the processing

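The 32 named genes called over 4 groups kept their direction under all alternatives run, at 0.801 to 1.2 times their size. Their number still called ranged from 1 (without Sham_Nx 2 or Sham_Nx 5) to 32. Against 49 genes, the count of calls was 61 with DESeq2's size factors, 73 with none, 52 with no filter, 96 with a filter of 1 CPM in 4 libraries, 413 with DESeq2, 47 with limma-voom, 483 in the sham-only fit, 62 with limma-trend on the deposited table, 2 without the muscle-high libraries and 9 with library numbers 1 to 16; without each sham library in turn it was 1 to 33. Fewer libraries were fitted in those leave-outs; the cause of the other differences was not tested. The difference of responses gave 63 calls with DESeq2 and 0 in every other setting run. The 483 sham-only calls became 1208 with DESeq2, 457 with limma-voom, 36 without Sham_Nx 2 and 3, 100 without Sham_Nx 5 and Sham_IH 5, and 195 to 428 without each library in turn. With the mouse number as a block (pairing by replicate number) the counts were 34 over 4 groups, 0 for the difference and 75 in the sham-only fit. The numbers are not stated to pair mice: same-numbered deviations correlated at -0.0307, 0.00833, 0.0362 and 0.395, and 1 of 4 Sham_Nx libraries correlated best with its own number. The uncalled genes Cyp7a1, Fmo1, Fmo5, Snhg11, Retn, Zg16 and Cela1 changed sign in some settings. Genes at or under 3 counts per library (0.0456 to 0.102 CPM) could not be compared at this depth.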

Other observations

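Some genes outside the lists were also called in the sham-only fit; they were chosen after their values were seen and form no tested group. Pex11a, which divides peroxisomes, was at 165, 132, 168 and 148 CPM in Sham_Nx 2 to 5 and 65.4, 87.7, 78.8, 72.5 and 83.8 CPM in Sham_IH 1 to 5 (-0.98 ± 0.21, adjusted p = 0.0524 over 4 groups and 0.00178 sham-only). All hypoxia libraries were below all normoxia libraries. Aldh3a2, a fatty aldehyde dehydrogenase, was at -0.67 ± 0.21 (sham-only adjusted p = 0.00596) and Hsdl2, a peroxisomal dehydrogenase, at -0.51 ± 0.13 (sham-only 0.00596). Slc25a47, a mitochondrial carrier of liver, was at -1.04 ± 0.33 (sham-only 0.0156). In the opposite direction, Mid1ip1, an activator of acetyl-CoA carboxylase, went from 13.2, 18.6, 22.4 and 16.1 CPM to 40.5, 52.2, 44.9, 51.8 and 37.0 CPM (1.37 ± 0.32, sham-only 0.00596), and the high-density lipoprotein receptor Scarb1 was at 0.32 ± 0.09 (sham-only 0.00736).

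A few genes were high in some hypoxia libraries and near 0 in the others. Idi1-ps1, a pseudogene of Idi1, was at 1.26, 3.18, 0, 3.87 and 0 CPM in Sham_IH 1 to 5 and at 0 in all Sham_Nx libraries, and Idi1 itself lay between 108 and 206 CPM in Sham_IH. Capn11, a calpain, was at 4.74, 0.0558, 0.055, 1.44 and 0.0533 CPM in Sham_IH and at most 0.0969 CPM in Sham_Nx. Neither passed over 4 groups and neither was tested in the sham-only fit.

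Hamp, the iron hormone hepcidin, was at 297, 287, 245 and 246 CPM in Sham_Nx 2 to 5 and 361, 368, 309, 556 and 411 CPM in Sham_IH 1 to 5 (0.58 ± 0.40, adjusted p = 0.58, sham-only 0.0594). The groups did not overlap and neither fit called it.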
